A study of Mus musculus with 12 samples.

Results

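The measurements below concern 7 cadherin genes of the mouse, Cdh1, Cdh2, Cdh3, Cdh4, Cdh6, Cdh11 and Cdh16, in dissected parts of the embryonic kidney. They were taken by name, as every probe set annotated to exactly one of these symbols. This gave 10 probe sets for the 7 genes, out of 12422 probe sets and 8251 genes on the MG_U74Av2 array. All tissue came from wild-type Swiss Webster embryos at E14.5 and had been identified by shape under the microscope, with antibody, lectin and RT-PCR checks stated in the labels. There were 4 groups of 3 arrays: renal vesicles in pools of 20 structures (replicates 2, 3 and 4), S-shaped bodies in pools of 20 (replicates 1, 2 and 3), single S-shaped bodies of 1 structure each (replicates 3, 4 and 5), and unpooled collecting duct of 1 sample each (replicates 1, 2 and 3). Embryo sex was not known, and the labels call each sample a biological replicate without saying which came from separate embryos, so a p-value reflects the spread among these samples alone, part of which may be technical. The study set the collecting duct as its reference, and it also asked how RNA from 1 S-shaped body compares with that from a pool.

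Cadherins are calcium-dependent adhesion proteins whose outer domains bind those of a neighbouring cell. The inner tail of a classical cadherin binds p120 catenin and beta-catenin, and alpha-catenin joins the complex to actin. In the kidney, mesenchyme that turns into a renal vesicle becomes an epithelium and then folds into the S-shaped body, while the collecting duct descends from the ureteric bud, which is an epithelium from the start. Cdh1 (E-cadherin), Cdh2 (N-cadherin), Cdh3 (P-cadherin) and Cdh4 (R-cadherin) are type I classical cadherins, and Cdh6 (K-cadherin) and Cdh11 (OB-cadherin) are type II. Cdh16 (Ksp-cadherin) is found mainly in kidney and is not a classical cadherin by structure: its short tail lacks the catenin-binding region. The set is therefore named here by its genes.

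Levels are given as log2 of the quantile-normalized intensity plus a pseudocount of 7.22. On this scale 2.85 is the floor, where the normalized intensity is at or under 0. An array's background was set at the distance by which the lowest 5% of its deposited values lay below 0. Probes bind with unequal strength, so levels are compared between groups and not between genes. A probe set was called when its adjusted p in limma, with Benjamini-Hochberg adjustment over all probe sets tested, was under 0.05.

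Arrays differed in deposited signal: means were 108 to 131 in renal vesicles, 203 to 239 in pooled S-shaped bodies, 21.4 to 70.6 in single S-shaped bodies and 272 to 363 in collecting duct. Between 48.3% and 59.7% of probe sets were above background per array. The 3′ to middle ratio of the beta-actin controls was 3.22 to 3.92 in pooled S-shaped bodies and 6.29 to 10.4 elsewhere. The 3′ to 5′ ratio of the Gapdh controls went the other way, at 21.2 to 28.3 in pooled S-shaped bodies. It was lower on every other array, among them 9.37 to 13.1 in single S-shaped bodies and 8.97 to 12 in collecting duct. The part of either ratio in the results was not tested. The number of arrays limits the precision of each value. Marker lists bore out the labels in part. In collecting duct 10 of 16 ureteric bud and duct markers were above background on all 3 arrays, and Wnt7b, Wnt11, Calb1, Ret, Gfra1 and Aqp2 on none. In renal vesicles 9 of 11 early nephron markers were above background on all 3 arrays. Pooled S-shaped bodies had 8 of 9 podocyte markers, 13 of 13 endothelial markers and 16 of 16 stromal markers above background on all 3 arrays. They thus held RNA of genes that also mark vessels and stroma. Of the podocyte markers, 7 were above background on all 3 arrays in renal vesicles and 4 in collecting duct. Pooled S-shaped bodies had only 6 of 11 early nephron markers and 3 of 11 tubule markers so, with Wnt4 and Dll1 above background on no pooled array. The tubule list did not set nephron apart from duct. Of its 11 markers, 5 were above background on all 3 arrays in renal vesicles and 7 in collecting duct. In such bulk samples fewer cells of a type and less RNA per cell cannot be told apart. Pooling differed between collecting duct and the pooled nephron groups, and the effects of pooling and tissue cannot be told apart there.

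**Figure D1:**
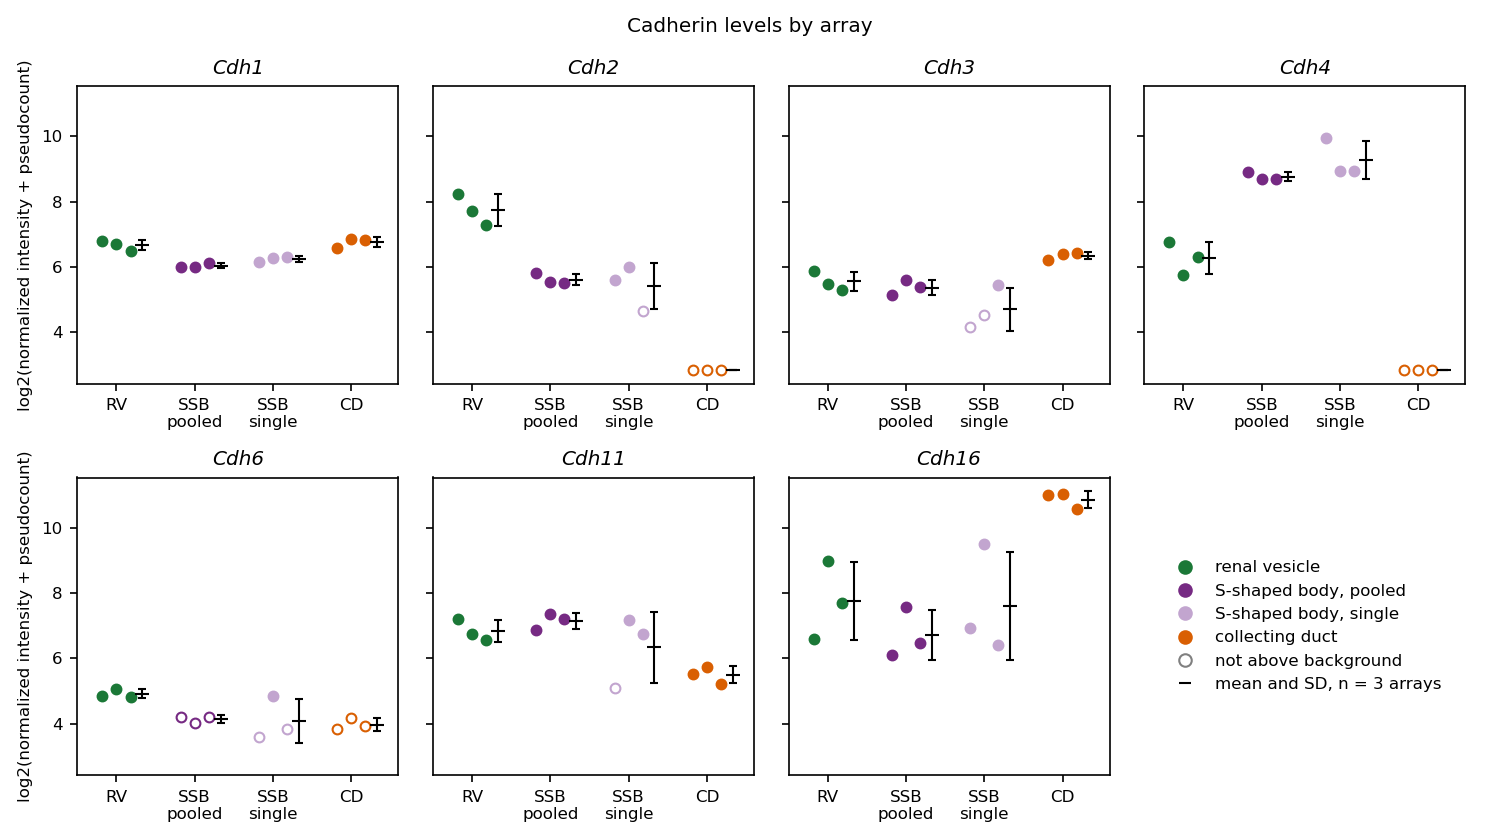
Log2 level (y axis) of each cadherin gene on every array, by group on the x axis: RV renal vesicle, SSB S-shaped body, CD collecting duct. Filled points are above background and open points are not, and black bars give the mean and SD of 3 arrays. Cdh2 and Cdh4 lie at the floor of 2.85 on the 3 collecting duct arrays, while Cdh16 lies there between 10.56 and 11.02.

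Cdh1, the E-cadherin of epithelial junctions (probe set 98140_at), was above background on all 12 arrays and was lower in pooled S-shaped bodies than in either other tissue. Its log2 level was 6.59, 6.86 and 6.84 in collecting duct and 6.80, 6.70 and 6.5 in renal vesicles. Pooled S-shaped bodies stood at 5.99, 6.01 and 6.11, and single ones at 6.14, 6.27 and 6.32. Renal vesicles and collecting duct overlapped, and every S-shaped body array was below every array of those groups. The fitted log2 difference of pooled S-shaped bodies from collecting duct was -0.72 ± 0.19 (SE, limma adjusted p = 0.0104). Against renal vesicles it was -0.63 ± 0.19 (SE, limma adjusted p = 0.0220). That second call was lost without renal vesicle replicate 2 (adjusted p = 0.0589), pooled replicate 1 (0.0623) or pooled replicate 2 (0.0573). Renal vesicles did not differ from collecting duct beyond their spread, with a log2 difference of -0.10 and a 95% interval of -0.51 to 0.32. Single S-shaped bodies did not pass against collecting duct (log2 difference -0.52 ± 0.24, SE, limma adjusted p = 0.132), but passed with no filter on low values (adjusted p = 0.0411). In the order collecting duct, renal vesicle, single and pooled S-shaped body, no neighbouring groups passed the test.

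Cdh2, the N-cadherin of mesenchyme and of nephron epithelium (102852_at), was highest in renal vesicles and at the floor in collecting duct. Renal vesicles had log2 levels of 8.24, 7.71 and 7.27 in replicates 2, 3 and 4. Pooled S-shaped bodies had 5.81, 5.53 and 5.50, and single ones had 5.61, 6.0 and 4.64, the last of which was not above background. The 3 renal vesicle arrays stood above all others. In collecting duct the deposited intensities were all negative, at -10.3, -13.7 and -14.9, and the log2 level was 2.85 on each array. Measured against the dimmest probe sets above background there, Cdh2 was at least 8.21-fold higher in renal vesicles (limma adjusted p = 5.95e-07) and at least 1.88-fold higher in pooled S-shaped bodies (limma adjusted p = 2.01e-05). For single S-shaped bodies, with 2 of 3 arrays above background, the bound was 1.64-fold (limma adjusted p = 0.00234). These adjusted p-values test the fitted difference from the floor and not the bound. Cdh2 passed the filter on low values through the nephron arrays, so it had to differ from collecting duct and the p-values add no support. Cdh2 fell from renal vesicle to pooled S-shaped body by 2.13 on the log2 scale (SE 0.27, limma adjusted p = 0.000180), or 4.37-fold. Single S-shaped bodies were also lower than renal vesicles (log2 difference -2.32 ± 0.42, SE, limma adjusted p = 0.00426). Pooled and single S-shaped bodies overlapped.

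Cdh3, the P-cadherin, lies beside Cdh1 on the chromosome, with 0 protein-coding genes between them in RefSeq's GRCm38.p6. Its brighter probe set, 162097_r_at, had log2 levels of 6.22, 6.41 and 6.44 in collecting duct and 5.89, 5.48 and 5.31 in renal vesicles. Pooled S-shaped bodies had 5.14, 5.59 and 5.39, and single ones 4.15, 4.52 and 5.44, with 1 of 3 single arrays above background. The collecting duct arrays stood above all others, and the nephron groups overlapped. By this probe set Cdh3 was lower than in collecting duct in renal vesicles (log2 difference -0.80 ± 0.24, SE, limma adjusted p = 0.0331), pooled S-shaped bodies (-0.98 ± 0.24, adjusted p = 0.00744) and single ones (-1.65 ± 0.39, adjusted p = 0.0120). The other probe set, 100409_at, was above background on 1 of 12 arrays and fell under the filter in the 9-array fit without single S-shaped bodies. With the mean of both probe sets no Cdh3 call was kept (adjusted p = 0.412, 0.888 and 0.224). The renal vesicle call was also lost without any 1 of renal vesicle replicates 3 and 4 and of the collecting duct replicates (adjusted p of 0.0602 to 0.0981), and with all 12 arrays in 1 fit (0.131). The single S-shaped body call was lost without collecting duct replicate 2 (0.0539) or 3 (0.0560).

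Cdh4, the R-cadherin known from retina, brain and developing kidney, was highest in S-shaped bodies, lower in renal vesicles and at the floor in collecting duct. The probe set 95898_at stood at 8.91, 8.68 and 8.69 in pooled and at 9.94, 8.94 and 8.94 in single S-shaped bodies. Renal vesicles had 6.75, 5.75 and 6.30. Every S-shaped body array was above every renal vesicle array, and all of these were above collecting duct. The deposited collecting duct intensities were negative, at -102, -97.8 and -60.3, so their log2 level was 2.85 on each array. Cdh4 was at least 16.7-fold higher in pooled S-shaped bodies than in collecting duct (limma adjusted p = 6.90e-08), at least 23.7-fold higher in single ones (limma adjusted p = 7.86e-06) and at least 2.96-fold higher in renal vesicles (limma adjusted p = 4.98e-06). As for Cdh2, the adjusted p-values beside these bounds test the fitted difference from the floor and not the bound. Cdh4 too passed the filter through the nephron arrays, so it had to differ from collecting duct and the p-values add no support. From renal vesicle to pooled S-shaped body Cdh4 rose by 2.49 ± 0.26 on the log2 scale (SE, limma adjusted p = 5.03e-05), or 5.63-fold. Against single S-shaped bodies the log2 difference from renal vesicles was 3.0 ± 0.36 (SE, limma adjusted p = 0.000698). The other Cdh4 probe sets, 95370_at and 95371_g_at, were above background on 0 of 12 arrays and were not tested. With the mean of all 3 probe sets the rise over renal vesicles was not called (pooled 0.53, adjusted p = 0.160; single 1.04, adjusted p = 0.110), while the differences from collecting duct were.

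The mean levels of endothelial, podocyte and stromal markers were, like Cdh4, highest in S-shaped bodies, lower in renal vesicles and lowest in collecting duct. Some members of each list went against this order. The endothelial Sox18 was at 5.32 to 6.43 in collecting duct and 3.42 to 4.66 in renal vesicles. The podocyte gene Cd2ap was at 7.96 to 8.27 and 6.38 to 7.03, and the stromal Postn at 8.31 to 8.7 and 5.31 to 5.97. All 13 measured endothelial markers were called higher in pooled S-shaped bodies than in collecting duct, where 18.2% of all probe sets were. Their median log2 difference was 4.95, beside -0.07 over all. In renal vesicles 5 of the 13 were called higher and 1 lower, where 12.3% and 11.6% of all were. Their mean log2 level was 8.39 to 8.83 in pooled and 8.13 to 8.62 in single S-shaped bodies, 5.05 to 6.0 in renal vesicles and 3.68 to 4.02 in collecting duct. In collecting duct Pecam1, Kdr, Flt1, Tie1, Tek, Cdh5, Cldn5, Cd34 and Sox17 were above background on no array. Markers at the floor there, such as Cdh5, passed the filter on low values through the nephron arrays. They had to differ from collecting duct, so the count of 13 adds no support. Podocyte markers had means of 8.68 to 8.98 in pooled S-shaped bodies, 6.46 to 7.89 in renal vesicles and 4.95 to 5.25 in collecting duct. Stromal markers had means of 7.12 to 7.36 in pooled and 7.17 to 7.41 in single S-shaped bodies. In renal vesicles the stromal means were 4.88 to 6.15, and in collecting duct 3.88 to 4.12. The part of any of these cell types in the Cdh4 level was not tested.

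Cdh6, the type II K-cadherin that marks the early nephron and proximal tubule (101730_at), was dim on this array. All 3 renal vesicle arrays had it above background, as had 1 of 3 single S-shaped body arrays, 0 of 3 pooled S-shaped body arrays and 0 of 3 collecting duct arrays. Renal vesicles had log2 levels of 4.85, 5.08 and 4.83. Pooled S-shaped bodies had 4.22, 4.02 and 4.20, single ones 3.6, 4.86 and 3.84, and collecting duct 3.83, 4.19 and 3.94. The renal vesicle arrays stood above those of pooled S-shaped bodies and collecting duct, and single replicate 4 lay among them. The bounds were small: at least 1.16-fold higher in renal vesicles than in collecting duct (limma adjusted p = 0.0214) and at least 1.19-fold higher than in pooled S-shaped bodies (limma adjusted p = 0.0344). The first call was lost without renal vesicle replicate 3 (adjusted p = 0.0546) or collecting duct replicate 1 (0.0725) or 3 (0.0599), and with all 12 arrays in 1 fit (0.0883). The second was lost without any 1 of the 6 arrays compared (0.0540 to 0.0921), and under scaling to the 75th percentile (0.0638) or to the median (0.0531).

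RefSeq's promoter table (GRCm38.p6) matched 1 of the 7 genes, Cdh6, and its sequence is shown because the renal vesicle was the only group with the gene above background on all arrays. These are the 250 bases before the start, at chr15:13173676-13173925 on the minus strand, 5′ to 3′, with the E-box (CANNTG, both strands) in capitals:
Cdh6: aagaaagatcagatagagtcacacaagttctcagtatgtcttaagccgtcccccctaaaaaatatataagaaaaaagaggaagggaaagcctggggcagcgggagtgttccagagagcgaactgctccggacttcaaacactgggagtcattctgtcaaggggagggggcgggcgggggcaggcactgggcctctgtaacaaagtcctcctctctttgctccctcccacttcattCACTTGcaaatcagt
E-boxes are the core motif bound by Snail, Zeb and Twist factors. The window held 1 E-box, CACTTG, whose first base lies 15 bases before the start. An E-box of any form was in 66.2% of 32851 promoter windows of the same length. The form CAGGTG, on either strand, was in 17.2% of windows and GTTAAT, the core of the HNF1 site, in 6.43%; neither was in the Cdh6 window. The arrays do not measure binding, and these matches describe letters only.

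Cdh11, the type II cadherin typical of mesenchyme (100006_at), was higher in renal vesicles and pooled S-shaped bodies than in collecting duct. Renal vesicles had log2 levels of 7.21, 6.75 and 6.56, and pooled S-shaped bodies 6.88, 7.37 and 7.22. Collecting duct had 5.53, 5.73 and 5.22, above background on all 3 arrays. Both nephron groups stood wholly above collecting duct and overlapped each other. The log2 difference from collecting duct was 1.34 ± 0.24 in renal vesicles (SE, limma adjusted p = 0.00231), or 2.54-fold, and 1.66 ± 0.24 in pooled S-shaped bodies (SE, limma adjusted p = 0.000293), or 3.15-fold. Single S-shaped bodies spread widely, at 5.10, 7.17 and 6.74 in replicates 3, 4 and 5, with replicate 3 not above background. They did not pass against collecting duct (log2 difference 0.84 ± 0.52, SE, limma adjusted p = 0.253), but passed without replicate 3 (1.46, adjusted p = 0.00754). Stromal markers were called higher than in collecting duct for 8 of 16 in renal vesicles, with 1 lower, and for 12 of 16 in pooled S-shaped bodies, with 0 lower. Of all probe sets tested 12.3% and 18.2% were called higher there. Cxcl12, Col1a2 and Pdgfra, at the floor on all 3 collecting duct arrays, passed the filter on low values through the nephron arrays. They had to differ from collecting duct, so these counts add no support. The mean log2 level of the 16 stromal markers was 3.88 to 4.12 in collecting duct, where 11 were above background on no array, among them Foxd1, Meis1, Pdgfra and Pdgfrb. It was 4.88 to 6.15 in renal vesicles, 7.12 to 7.36 in pooled and 7.17 to 7.41 in single S-shaped bodies. Between pooled S-shaped bodies and renal vesicles 9 of the 16 were called higher and 0 lower, where 17.5% and 19.2% of all were. Cdh11 was not called there (log2 difference 0.31, limma adjusted p = 0.341). The part of stromal cells in the Cdh11 level was not tested.

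Cdh16, the Ksp-cadherin of kidney tubules and ducts (93515_at), was brightest in collecting duct by a wide margin. There its log2 level was 11, 11.02 and 10.56, and the deposited intensity was 2360 to 4070. Renal vesicles had 6.61, 8.99 and 7.70, pooled S-shaped bodies 6.10, 7.57 and 6.47, and single ones 6.93, 9.50 and 6.40. All 12 arrays were above background, and no nephron array reached the collecting duct arrays. The log2 difference from collecting duct was -3.10 ± 0.52 in renal vesicles (SE, limma adjusted p = 0.00151), or 8.55-fold lower, and -4.15 ± 0.52 in pooled S-shaped bodies (SE, limma adjusted p = 0.000103), or 17.7-fold lower. In single S-shaped bodies it was -3.25 ± 0.68 (SE, limma adjusted p = 0.00698), or 9.54-fold lower, and this call was lost with no filter on low values (adjusted p = 0.0601). The 3 nephron groups overlapped. Pooled S-shaped bodies did not pass against renal vesicles (log2 difference -1.05, 95% interval -2.19 to 0.09, limma adjusted p = 0.140), but passed without renal vesicle replicate 2 (-1.63, adjusted p = 0.0208).

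The nephron arrays spread widely for Cdh16. Renal vesicle replicate 3 (8.99) and pooled S-shaped body replicate 2 (7.57) were the highest of their groups. They also had the highest mean of the 16 ureteric bud and duct markers in their groups, at 4.93 beside 3.83 and 3.80, and at 4.75 beside 4.13 and 4.38. The genes behind these means differed in their own collecting duct level. Calb1, a ureteric bud marker at the floor on all 3 collecting duct arrays, was at 8.72 in that renal vesicle array and 2.85 and 3.47 in the others, and at 7.70 in that pooled array beside 3.19 and 4.34. Krt19, a duct keratin at 11.16 to 11.51 in collecting duct, was at 3.93 in that renal vesicle array and at the floor in that pooled array. The galectin Lgals3, at 8.13 to 8.49 in collecting duct, was at the floor in both. The keratin Krt8, at 10.9 to 11.18 in collecting duct, was at 6.47 in that renal vesicle array beside 2.85 and 3.41, and at 5.24 in that pooled array beside 2.85 and 5.12. Krt7, at 11.07 to 11.16 in collecting duct, was at 7.51 beside 2.85 and 4.22, and at 9.41 beside 9.26 and 8.62. Wnt11, at the floor in collecting duct, was at 7.1 beside 4.96 and 4.49, and at 5.79 beside 3.36 and 4.65. Foxa1 and Elf3 were not highest on that renal vesicle array, at 4.44 and 4.07 beside 5.25 and 5.18 in replicate 2. The part of duct cells in these Cdh16 levels was not tested. Single replicate 4 had the highest Cdh16 level of any nephron array, 9.50. Its marker mean was 4.02, beside 4.06 and 4.56 in single replicates 3 and 5. Single markers went both ways on that array. Krt7 was at 7.61 beside 8.92 and 10.09, and Cldn4 at 4.23, not above background, beside 2.85 and 2.85. Calb1 was at the floor on all 3 single arrays.

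**Figure D2:**
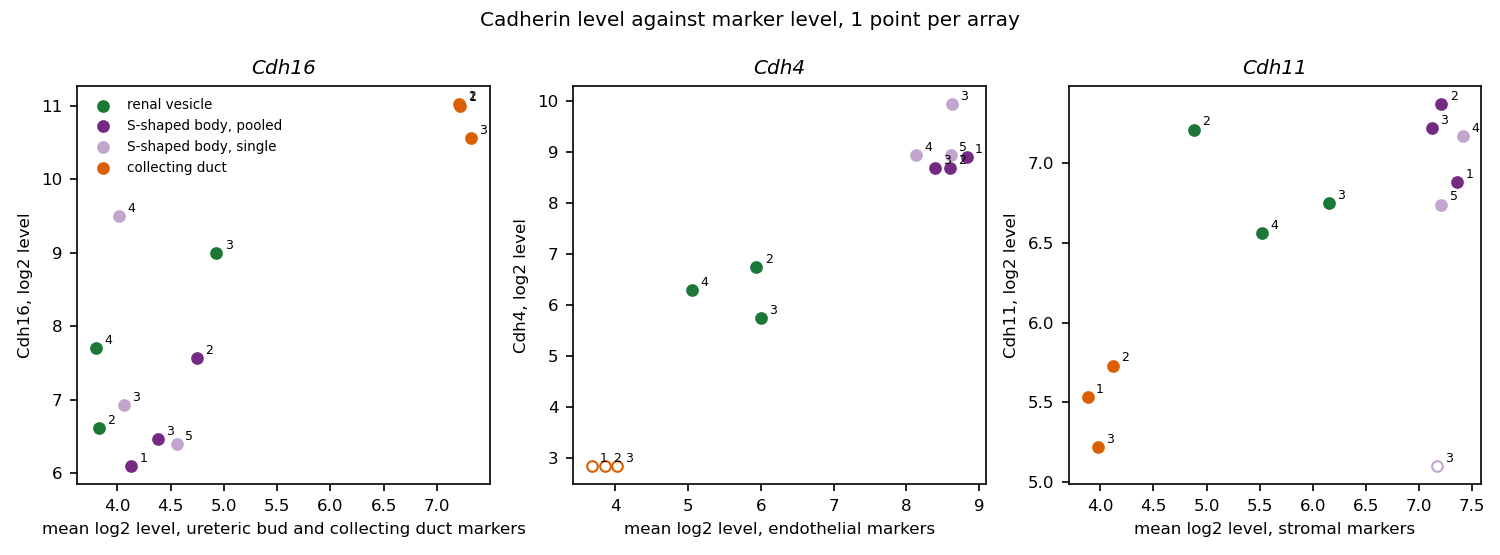
Log2 level of a cadherin (y axis) against the mean log2 level of a marker list (x axis), 1 point per array with its replicate number; open points are not above background. Cdh16 is set against 16 ureteric bud and duct markers, Cdh4 against 13 endothelial markers and Cdh11 against 16 stromal markers. Single S-shaped body replicate 4 has a Cdh16 level of 9.50 at a marker mean of 4.02, beside 4.06 and 4.56 for single replicates 3 and 5.

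Set side by side, most of the 7 genes were called against collecting duct, in both directions; Cdh6 was not called in pooled S-shaped bodies, nor Cdh1 in renal vesicles. Against collecting duct, 4 were called higher in renal vesicles (Cdh2, Cdh4, Cdh6 and Cdh11) and 2 lower (Cdh3 and Cdh16), where 23.9% of all 9316 probe sets tested were called, 12.3% higher and 11.6% lower. In pooled S-shaped bodies 3 were higher (Cdh2, Cdh4 and Cdh11) and 3 lower (Cdh1, Cdh3 and Cdh16), where 38.2% were called, 18.2% higher and 20.0% lower. The arrays of the compared groups did not overlap for 6 of the 7 genes in either comparison, beside 39.5% and 52.2% of probe sets tested. In renal vesicles the count of 6 became 4 without renal vesicle replicate 3 or collecting duct replicate 1 or 3, and with all 12 arrays in 1 fit, when Cdh3 and Cdh6 were not called. These comparisons share the collecting duct arrays. The 7 chosen probe sets passed the filter on low values in every fit. Cdh2 and Cdh4 passed through the nephron arrays, since collecting duct is at the floor, so they had to differ and these counts support nothing further. The median log2 difference of the 7 was 0.94 for renal vesicles and 0.16 for pooled S-shaped bodies, beside -0.02 and -0.07 over all probe sets tested.

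Between pooled S-shaped bodies and renal vesicles, Cdh4 was higher and Cdh1, Cdh2 and Cdh6 were lower in S-shaped bodies, 4 of 7 where 36.7% of probe sets were called, 17.5% higher and 19.2% lower. The arrays did not overlap for 4 of 7 genes, beside 47.4% of probe sets. Cdh3, Cdh11 and Cdh16 did not pass. The count was 2 without pooled replicate 1 or without pooled replicate 2, when the calls of Cdh1 and Cdh6 were lost. Single S-shaped bodies gave 4 calls of 7 against collecting duct, where 33.8% were called, 16.0% higher and 17.9% lower: Cdh2 and Cdh4 were higher, Cdh3 and Cdh16 lower. Against renal vesicles, where 27.1% were called, 12.5% higher and 14.6% lower, Cdh4 was higher and Cdh2 lower. Arrays did not overlap for 5 and 3 of the 7 genes, beside 48.4% and 44.5% of probe sets.

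**Figure D3:**
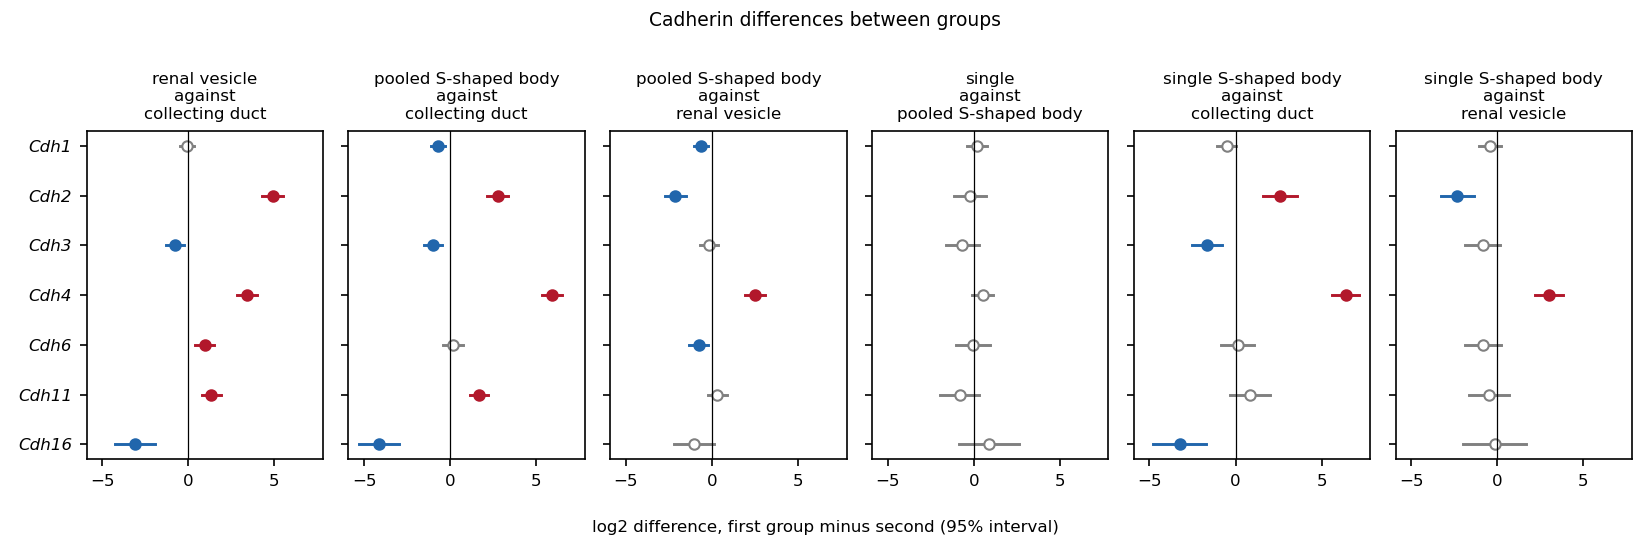
Log2 difference between groups (x axis, first group minus second, with its 95% interval from limma) for each cadherin gene (y axis) in 6 comparisons. Filled points passed an adjusted p of 0.05, red for higher and blue for lower in the first group, and open grey points did not. Where collecting duct is at the floor, as for Cdh2 and Cdh4, the plotted size depends on the pseudocount; the bounds are at least 8.21-fold and 2.96-fold in renal vesicles.

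Whether 1 S-shaped body gives the same cadherin readout as a pool of 20 was compared directly. None of the 7 genes was called between single and pooled S-shaped bodies by limma, where 0.397% of probe sets were, and none had an unadjusted p under 0.05. The intervals show what could have been missed. They were narrowest for Cdh1 (log2 difference 0.20, 95% interval -0.38 to 0.79) and Cdh4 (0.51, -0.12 to 1.14), and widest for Cdh16 (0.89, -0.85 to 2.64) and Cdh11 (-0.82, -1.97 to 0.33). For Cdh1 and Cdh4 every single array was nonetheless above every pooled array, as for 24.9% of probe sets in either direction. The SD over single arrays was 1.66 for Cdh16, 1.09 for Cdh11 and 0.70 for Cdh2, beside 0.76, 0.25 and 0.17 over pooled arrays (n = 3 each, log2). Single arrays had fewer probe sets above background, 48.3% to 54.4%, and the part of this in the spread was not tested.

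Among other members of the cadherin superfamily, the desmosomal Dsc2 and Dsg2 were lower and the vessel cadherin Cdh5 higher than in collecting duct. Of 16 measured, 8 passed the filter in the 9-array fit. Against collecting duct 2 were higher and 3 lower in renal vesicles, where 12.3% and 11.6% of all probe sets tested were. In pooled S-shaped bodies 1 was higher and 5 lower, where 18.2% and 20.0% were. The median log2 differences were -0.21 and -1.06, beside -0.02 and -0.07 over all probe sets. Between pooled S-shaped bodies and renal vesicles 2 were higher and 5 lower, where 17.5% and 19.2% of all were, with a median of -1.0 beside -0.03. The desmosomal cadherins Dsc2 and Dsg2, which anchor keratin filaments, were lower in both. Dsc2 averaged 9.81 ± 0.16 in collecting duct, 5.48 ± 0.36 for renal vesicles and 4.43 ± 0.45 for pooled S-shaped bodies (SD, n = 3, log2), with limma adjusted p = 1.29e-06 and 1.56e-07 against collecting duct. Dsg2 had log2 differences of -2.02 ± 0.39 and -3.66 ± 0.39 (SE, limma adjusted p = 0.00370 and 3.52e-05). Dsc1, also desmosomal, did not pass in renal vesicles (-0.19 ± 0.34, SE, limma adjusted p = 0.729). In pooled S-shaped bodies Dsc1 was lower by at least 1.3-fold (limma adjusted p = 0.0211). Celsr1, a cadherin of planar cell polarity, was higher in renal vesicles (1.28 ± 0.21, SE, limma adjusted p = 0.00144) and lower in pooled S-shaped bodies (-0.99 ± 0.21, SE, limma adjusted p = 0.00357). Its relative Celsr2 was lower in renal vesicles (-0.75 ± 0.21, SE, limma adjusted p = 0.0231) and did not pass in pooled S-shaped bodies (0.46 ± 0.21, SE, limma adjusted p = 0.107). Cdh5, the cadherin of vessels, was at the floor in collecting duct, at 7.50, 6.24 and 4.58 for renal vesicles and at 10.26, 10.03 and 9.98 for pooled S-shaped bodies. It passed the filter through the nephron arrays, so it had to differ from collecting duct. Pcdh7, a protocadherin above background on 2 of 3 collecting duct arrays, was lower in pooled S-shaped bodies by at least 1.05-fold (limma adjusted p = 0.00718). On every pooled array it was at the floor, and it passed the filter through the other groups, so this p-value adds no support. Cdh8, Cdh9, Cdh10, Cdh13, Cdh15 and the desmosomal Dsc3 were above background on no array.

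Most catenins and junction anchors were lower or not called in renal vesicles. Of 20 tested among 22 measured, 1 was higher and 7 lower in renal vesicles than in collecting duct, and 4 were higher and 6 lower in pooled S-shaped bodies, beside 23.9% and 38.2% of all probe sets called in either direction. The median log2 differences were -0.44 and -0.22, beside -0.02 and -0.07 over all probe sets. Between pooled S-shaped bodies and renal vesicles 7 were higher and 4 lower, where 36.7% of all were called. Ctnna1, the alpha-catenin that links to actin, averaged 10.38 in collecting duct, 9.88 in renal vesicles (limma adjusted p = 0.0299) and 9.14 in pooled S-shaped bodies (limma adjusted p = 6.72e-05). Ctnnb1, beta-catenin, averaged 11.21 to 11.69 in these 3 groups and passed in neither comparison (log2 differences -0.48 ± 0.17 and -0.08 ± 0.17, SE, limma adjusted p = 0.0591 and 0.759). In single S-shaped bodies, fitted apart, it was lower than in collecting duct (-0.55, limma adjusted p = 0.0245). Ctnnd1, p120 catenin, was lower in renal vesicles (-0.79 ± 0.18, SE, limma adjusted p = 0.00976) and not in pooled S-shaped bodies (-0.15 ± 0.18, SE, adjusted p = 0.559). Ctnnd2, its relative, was lower in pooled S-shaped bodies (-1.43 ± 0.40, SE, limma adjusted p = 0.0151). Jup, or plakoglobin, passed in neither (adjusted p = 0.114 and 0.238), nor did Ctnna2 (0.0770 and 0.320) or Ctnnal1 (0.477 and 0.891). The plakophilin Pkp2, a desmosomal plaque protein, was lower in both (log2 differences -1.30 ± 0.16 and -1.19 ± 0.16, SE, limma adjusted p = 0.000167 and 0.000159). Pkp4 was lower in renal vesicles (-1.05 ± 0.14, SE, limma adjusted p = 0.000435), and Actn1, an actin crosslinker, was higher (0.56 ± 0.15, SE, limma adjusted p = 0.0207). In pooled S-shaped bodies Actn4, also a podocyte gene, Tjp1, a tight junction scaffold, and Rac1, a small GTPase, were higher by 1.10, 1.02 and 0.66 on the log2 scale, and Rhoa changed by -1.98 (limma adjusted p = 0.000819, 0.000121, 0.0112 and 7.54e-06).

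**Figure D4:**
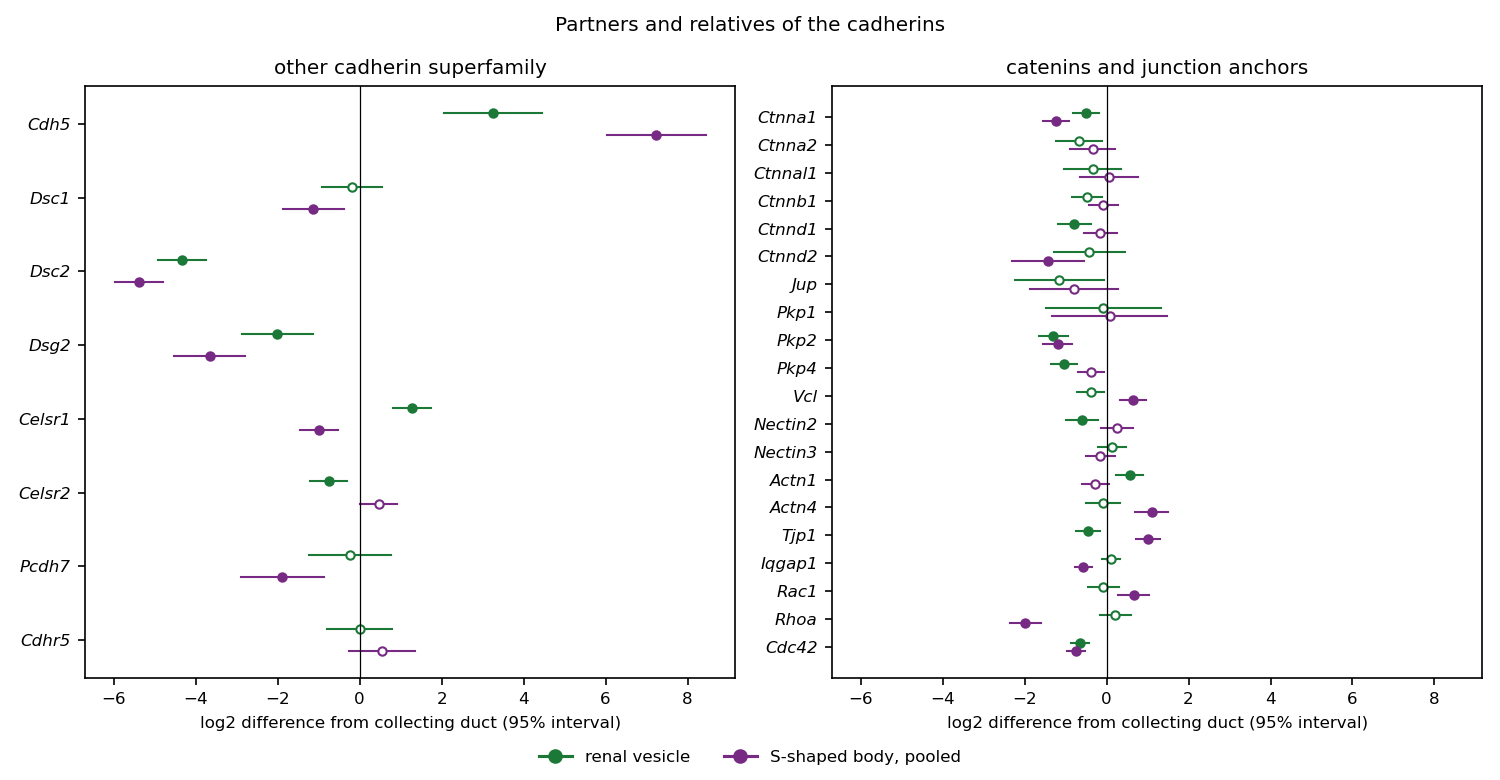
Log2 difference from collecting duct (x axis, with its 95% interval from limma) of other cadherin superfamily genes and of catenins and junction anchors (y axis), in renal vesicles and pooled S-shaped bodies. Filled points passed an adjusted p of 0.05. Dsc2 and Dsg2 are lower and Cdh5 higher in both, while Ctnnb1 passed in neither.

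Transcription factors, corepressors and histone deacetylases known to act on Cdh1 were followed as a list, of which several also mark a cell type. Of 16 tested, 4 were higher and 4 lower in renal vesicles than in collecting duct, and 5 were higher and 7 lower in pooled S-shaped bodies, beside 23.9% and 38.2% of all probe sets called in either direction. The median log2 differences were 0.14 and -0.32, beside -0.02 and -0.07 over all. Zeb1, a repressor of Cdh1, had a mean of 7.0 ± 0.56 for renal vesicles and 9.86 ± 0.18 for pooled S-shaped bodies (SD, n = 3, log2), with no collecting duct array above background. It was at least 4.92-fold and 35.8-fold higher than in collecting duct (limma adjusted p = 7.28e-05 and 2.67e-07). Snai2, a repressor of the same class, was higher by 2.21 ± 0.19 and 2.73 ± 0.19 (SE, limma adjusted p = 1.25e-05 and 1.57e-06), and Snai1 was above background on no array. Foxc2, also a podocyte marker, was at least 54.0-fold and 67.4-fold higher (limma adjusted p = 3.22e-08 and 2.60e-08). At 2.85 to 3.57 in collecting duct, it passed the filter on low values through the nephron arrays. It had to differ, so these p-values add no support. Foxa1, a forkhead factor that is also a duct marker, averaged 10.82 ± 0.08 in collecting duct, 4.18 ± 1.22 for renal vesicles and 3.08 ± 0.39 for pooled S-shaped bodies (SD, n = 3, log2; limma adjusted p = 3.64e-06 and 8.07e-07). Foxa1, near the floor in pooled S-shaped bodies, passed the filter through the other groups, so its p-value there adds no support. Elf3, an epithelial factor on the duct list as well, was lower in both (log2 differences -1.83 ± 0.32 and -1.84 ± 0.32, SE, limma adjusted p = 0.00182 and 0.000883). Klf4 was lower in renal vesicles (-2.63 ± 0.23, SE, limma adjusted p = 1.32e-05). It averaged 7.4 in pooled S-shaped bodies, beside 8.98 in collecting duct. Tfap2c was lower in pooled S-shaped bodies by at least 1.47-fold (limma adjusted p = 0.0387), with 2 of 3 collecting duct arrays above background. It was at the floor on every pooled array and passed the filter through the other groups, so this p-value adds no support. Cdh1 itself did not pass between renal vesicles and collecting duct. It was lower in pooled S-shaped bodies than in collecting duct (log2 difference -0.72 ± 0.19, SE, limma adjusted p = 0.0104). The part of these factors in the Cdh1 level was not tested.

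Enzymes that cut, dephosphorylate or turn over cadherins formed the last list. Of 15 tested, 1 was higher and 3 lower in renal vesicles than in collecting duct, and 7 were higher and 5 lower in pooled S-shaped bodies, beside 23.9% and 38.2% of all probe sets called in either direction, so the first count is near the background. The median log2 differences were -0.06 and 0.30, beside -0.02 and -0.07 over all. Ptprf, the LAR receptor phosphatase, averaged 10.52 in collecting duct, 8.41 for renal vesicles and 6.72 for pooled S-shaped bodies (limma adjusted p = 1.83e-05 and 1.73e-07 against collecting duct). Ptprm, a phosphatase that binds cadherin complexes, was at least 2.21-fold higher in renal vesicles and at least 1.49-fold higher in pooled S-shaped bodies (limma adjusted p = 0.00167 and 0.00573). Furin, a convertase that removes cadherin propeptides, was lower in both (log2 differences -1.20 ± 0.15 and -0.94 ± 0.15, SE, limma adjusted p = 0.000218 and 0.000602). Adam10, the sheddase of Cdh1 and Cdh2, was lower in renal vesicles (-0.51 ± 0.16, SE, limma adjusted p = 0.0373). It averaged 8.24 in pooled S-shaped bodies, beside 8.81 in collecting duct. Mmp14, a membrane metalloproteinase, and Ptpn1, a phosphatase, were higher in pooled S-shaped bodies (1.77 ± 0.19 and 1.60 ± 0.24, SE, limma adjusted p = 4.06e-05 and 0.000340). Ptpru was lower there, with 2 of 3 collecting duct arrays and no pooled array above background (limma adjusted p = 0.0442). At the floor on every pooled array, it passed the filter through the other groups, so this p-value adds no support.

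The genes most like each cadherin were taken by Pearson correlation over the 12 arrays among 6088 genes. Points within a group share tissue, so r describes the group pattern as much as single arrays. Cdh2 lay closest to Lhx1 (r = 0.975), a LIM homeobox factor of the renal vesicle, then Hoxa11os (0.969) and Rspo1 (0.968). Lhx1 averaged 7.19 in renal vesicles, 5.53 in pooled and 5.40 in single S-shaped bodies, and was at the floor in collecting duct. For Cdh4 the nearest were Cd302 (r = 0.985), Aopep (0.984) and Gimap4 (0.982). Gimap4 averaged 7.03, 11.07 and 10.83 in those nephron groups, and it too was at the floor in collecting duct. Cdh16 had Pdzk1 (r = 0.960), Tfcp2l1 (0.945), a transcription factor of the collecting duct, and Fos (0.942), an immediate early gene, which averaged 12.18 in collecting duct and 9.05 to 9.65 elsewhere. Cdh1 had Trip12 (r = 0.956), Scd2 (0.946) and Tmem170 (0.943), and Cdh3 had Fbxw11 (0.959), Egr2 (0.957) and Rogdi (0.956). Cdh11 had Ap2s1 (r = 0.899), Adam19 (0.897) and Wipf1 (0.895). Cdh6 had Mrpl2 (r = 0.921), Adpgk (0.914) and Cdc23 (0.891), over levels that were above background on 4 of 12 arrays.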

How the data were processed

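RNA was extracted with TRIzol, amplified in 2 rounds and hybridized to 1 array per sample, per the labels' protocols. The authors deposited linear intensity values, some negative; GCOS is named in the submitters' processing notes, and no source used here states how probes were background corrected, summarized or scaled. Array medians differed up to 17.8-fold, so the 12422 probe sets besides 66 controls were quantile normalized; values under 0 were set to 0, and log2 was taken after adding 7.22 (25% of the median). A filter removed those whose mean over a fit's arrays was below its 25th percentile. Groups were compared with limma 3.58.1 in R 4.3.3 (empirical Bayes with trend, two-sided): renal vesicle, pooled S-shaped body and collecting duct in 1 fit of 9 arrays, and single S-shaped bodies in fits of 6. Of the probe sets, 10833 had 1 symbol in the array's annotation; a gene is its brightest such probe set. A bound sets the bright mean against, per dim array, the lowest level above background or the gene's own. An adjusted p beside a bound tests the fitted difference and not the bound. Named genes were the 7 members, all catenins, the 3 called genes per list and direction with the largest change against collecting duct, and the 3 most correlated genes per member. The fit was also run on simulated data drawn without a floor, which do not cover genes at the floor such as Cdh2 and Cdh4. Members, lists and settings were chosen with earlier results of these data known. Arrays with the same replicate number did not deviate together (correlations of -0.08 to 0.04), so the numbers were not used as pairs. No 2 arrays were identical (0 pairs).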

Additional observations from a re-analysis of the deposited data

How the results depend on the processing

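Settings varied were the scaling, pseudocount, filter, variance trend, array weights, arrays in the fit, the replicate number as a block, averaging of a gene's probe sets, and each array left out. Of 22 called cadherin differences, 0 reversed in 353 refits, 35 refits lost the call, and 12 differences kept it in every refit. Among 20 differences not called, 3 refits gained a call and 12 changed sign. The sign changed for Cdh3 between pooled S-shaped bodies and renal vesicles with its probe sets averaged (0.29), and for Cdh6 between single and pooled S-shaped bodies with a pseudocount equal to the median (0.00) or array weights (0.06). With 1 array left out, single against pooled S-shaped bodies ranged from -0.49 to 0.19 for Cdh2, from -0.43 to 0.20 for Cdh6 and from -0.05 to 1.5 for Cdh16. Single S-shaped bodies against renal vesicles ranged from -0.92 to 0.12 for Cdh11 and from -1.10 to 0.46 for Cdh16, and Cdh6 against collecting duct from -0.26 to 0.37. The cause of these changes was not tested.

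The count of probe sets called between single and pooled S-shaped bodies was 37, and it became 146 under 75th percentile scaling, 75 under median scaling, 19 with a filter at the 50th percentile, 424 with all 12 arrays in 1 fit, and 1 to 72 with an array left out, the highest without single replicate 5. None of the 7 cadherins was among the 37. Between single S-shaped bodies and renal vesicles 2525 probe sets were called, and 1539 to 2344 with an array left out, the lowest values without renal vesicle replicate 2 (1539) or 4 (1583); with probe sets averaged the cadherin count there fell from 2 to 1. Between pooled S-shaped bodies and renal vesicles the cadherin count of 4 became 2 to 3 with an array left out. Replicate numbers did not pair the arrays; with the number as a block, the calls were 1383 probe sets for renal vesicles against collecting duct in place of 2225, 1113 for single S-shaped bodies against renal vesicles, and 2 and 1 cadherins for pooled and single S-shaped bodies against renal vesicles. The block also took the cadherin count in renal vesicles against collecting duct from 6 to 4, losing Cdh3 (adjusted p = 0.116) and Cdh6 (0.107). Single S-shaped bodies share only 1 replicate number with pooled S-shaped bodies and with collecting duct, so no block was fitted there. Median scaling moved the share of higher calls in renal vesicles against collecting duct from 51.4% to 66.4%, and the median of all probe sets in single S-shaped bodies against renal vesicles to -0.20.

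Fitted differences of genes at the floor depend on the pseudocount: Cdh2 in renal vesicles ranged from 3.03 to 6.18, and the bounds, also taken on the scale with the pseudocount, were not recomputed. Signal over background limits Cdh6, whose pooled S-shaped body and collecting duct levels were both below background, and the dimmer Cdh3 and Cdh4 probe sets.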
